A study of Mus musculus with 6 samples.

Results

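The genes described here are usually read as macrophage markers, and they were measured in a cultured mouse melanoma line. The rule names 7 genes, and 6 of them (Lyz2, Cd68, Cd14, Fcer1g, Csf1r and Fcgr3) had a row among the 19213 genes of the table. Tyrobp, an adaptor that pairs with activating myeloid receptors, had no row and was not analysed here. The members were selected on their levels in these libraries, as genes of another cell type that were read at all, so those levels are given as a description. Earlier results of the knockout comparison were known when they were chosen.

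PolyA RNA came from mouse melanoma cells, with 3 non-targeting control samples and 3 samples carrying a CRISPR-Cas9 knockout of Spp1. Spp1 encodes osteopontin, a secreted phosphoprotein. The labels place all 6 samples in 1 batch. Each sample has its own cell line label, in sequence from B16F10 for control 1 up to B16F15 for the last knockout. Whether these labels name different cells or are a numbering slip is not stated. A difference between cells cannot be told apart from the knockout. No clone, pool or culture is named, so each p-value covers only the spread among these 6 samples, which may be technical. The libraries held 72717465 to 94314770 reads in listed genes. Reads of Spp1 numbered 143, 175 and 178 in control and 2, 2 and 4 in knockout. Each of the 10 melanocyte markers examined was listed, with Tyrp1, a melanin enzyme, at 414023 ± 5207 scaled reads in control against 503767 ± 7438 after knockout (SD, n = 3 per group).

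Macrophages and other myeloid cells take up, digest and report on foreign material, and the members serve different steps of that work. Csf1r is the receptor kinase that CSF1 and IL-34 engage to keep macrophages alive. Cd14 hands bacterial lipopolysaccharide to Toll-like receptor 4, Fcgr3 binds IgG, and Fcer1g is the signalling chain that Fc receptors share, carrying an immunoreceptor tyrosine-based activation motif (ITAM). Lyz2 is the lysozyme of macrophages and neutrophils, and Cd68 is a heavily glycosylated protein of late endosomes and lysosomes. Melanocytes also hold lysosome-related organelles, the melanosomes.

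All members were read at low depth, and they differed widely among themselves. All values below are scaled reads, that is, reads divided by the authors' size factor for each library. As a share of each control library, Lyz2 took 2.10 to 2.22 RPM (reads in a library scaled to 1000000), Cd68 1.31 to 1.55 and Fcer1g 0.343 to 0.562. Cd14 took 0.138 to 0.284 RPM in control, and Csf1r and Fcgr3 took at most 0.0530 and 0.0236.

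Levels of different genes were compared per kilobase of annotated exon. In the control libraries Lyz2 stood highest at 124.1 ± 3.28 scaled reads per kilobase, followed by Cd68 at 84.8 ± 7.98, Fcer1g at 36.7 ± 11.0 and Cd14 at 8.33 ± 3.52. Fcgr3 followed at 0.700 ± 0.293 and Csf1r at 0.398 ± 0.273 (SD, n = 3 each). Neighbours in this order did not overlap in any control library except Fcgr3 and Csf1r. Lyz2 held place 10150 and Csf1r place 18851 among 19121 genes with a known exon length. In knockout the 3 highest members could not be ordered. Cd68 stood at 38.0 ± 2.76, Fcer1g at 32.9 ± 5.87 and Lyz2 at 27.8 ± 5.69, and each overlapped the next. With the length of the longest transcript Fcer1g stood above Cd68 in knockout, at 42.0 against 38.8. Cd14, at 3.06 ± 1.36, remained below these 3 genes in every knockout library.

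**Figure D1:**
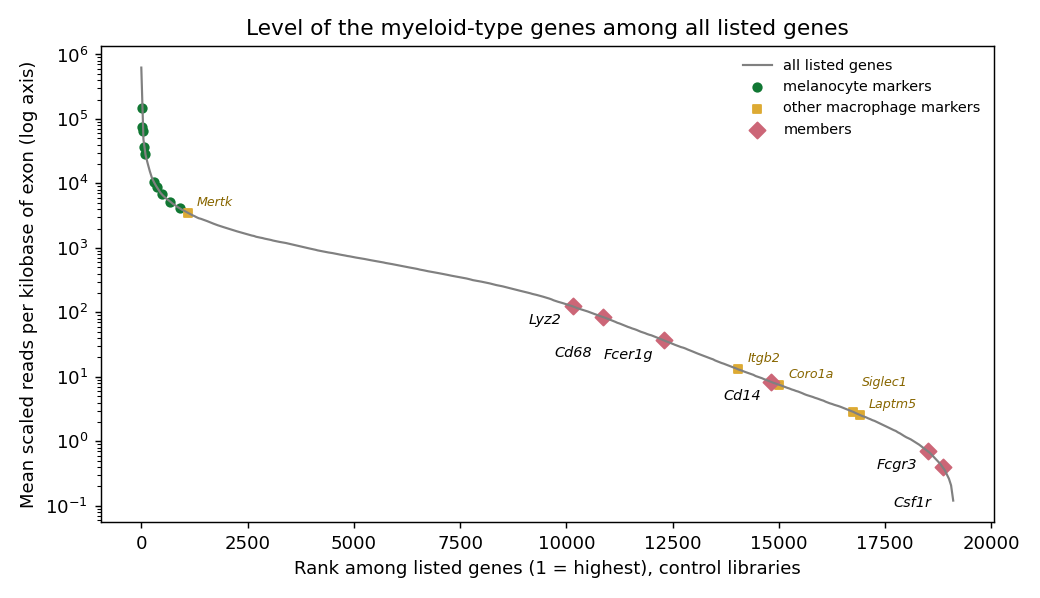
Mean scaled reads per kilobase of exon in the 3 control libraries (log axis) against the rank among all listed genes, with the members as diamonds, melanocyte markers as circles and other macrophage markers as squares. Lyz2, the highest member at 124.1, lies at rank 10150, and Csf1r lies near the end at rank 18851.

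The enzyme and the lysosomal glycoprotein were lower in knockout. Lyz2 (ENSMUSG00000069516.7, chr10:117277331-117282321, minus strand of mm10, 4 exons) stood at 159.8, 168.1 and 161.9 scaled reads in control and at 42.9, 38.6 and 28.3 in knockout. Every knockout library lay far below every control library, and the control libraries lay close together. The log2 change was -2.15 ± 0.16 (SE; 95% interval -2.49 to -1.80; limma adjusted p = 1.65e-08). From 540 reads in control and 109 in knockout, knockout stood at 0.223 of control (exact 95% counting interval 0.180 to 0.274). Lyz2 shares 15.4% of its 50-base words with Lyz1, its neighbouring paralogue, which had no row and was not analysed here. In these bulk samples, fewer cells expressing a gene and less RNA per cell cannot be told apart.

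Cd68 (ENSMUSG00000018774.13, chr11:69664213-69666153, minus strand, 6 exons) stood at 118.0, 99.2 and 102.5 scaled reads in control and at 43.9, 48.5 and 50.8 in knockout. The groups did not overlap, and the knockout libraries lay near each other. The log2 change was -1.14 ± 0.15 (SE; 95% interval -1.45 to -0.83; limma adjusted p = 5.74e-06), and the ratio of reads was 0.451 (0.369 to 0.550).

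Changes of this kind were common in the whole comparison. Of 15307 tested genes 63.0% changed, 28.6% lower and 34.4% higher in knockout (limma, adjusted p under 0.05). The groups did not overlap in 67.1% of tested genes, and in 30.8% every knockout library lay below every control library. Called falls at least as large as that of Lyz2 were seen in 1.18% of tested genes, and at least as large as that of Cd68 in 4.43%.

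Ratios between the members within a library restate the changes above on a scale that is free of the library's scaling. The ratio of Lyz2 to Cd68, per kilobase, was 1.29, 1.62 and 1.51 in the control libraries and 0.932, 0.760 and 0.533 in the knockout libraries. The groups did not overlap. After the median change of the tested genes around each member was subtracted, as described with the chromosomes below, the log2 changes of Lyz2 and Cd68 lay closer together, at -1.63 and -1.27 in place of -2.15 and -1.14. The ratio of Lyz2 to Fcer1g was 3.91, 4.31 and 2.49 in control and 1.09, 0.740 and 0.741 in knockout. For Cd68 to Fcer1g it was 3.02, 2.66 and 1.65 in control against 1.17, 0.973 and 1.39 in knockout. For each of these 3 ratios the exact permutation test, two-sided, gave p = 0.1 (adjusted over the 3 ratios 0.1), the smallest that 3 against 3 libraries allow, so a shift in these ratios could not pass.

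**Figure D2:**
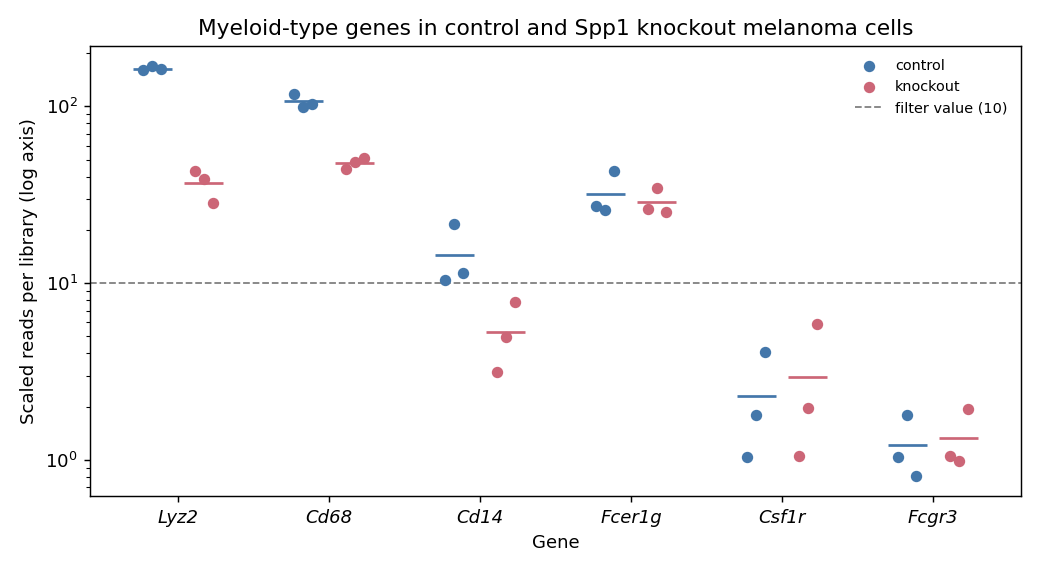
Scaled reads of each listed member in each library (log axis), with 3 points and a bar at the mean for control and for knockout, and the filter value of 10 as a dashed line. Lyz2, Cd68 and Cd14 lie lower in each knockout library than in each control library, and Fcer1g, Csf1r and Fcgr3 overlap.

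Cd14 was lower too, at a level where single reads count. The gene (ENSMUSG00000051439.6, chromosome 18, minus strand, 2 exons) was read 10, 24 and 14 times in control and 3, 5 and 8 times in knockout. Scaled, this was 10.4, 21.5 and 11.4 against 3.14, 4.95 and 7.81. The groups did not overlap, and control 2 lay well above the other control libraries. Cd14 passed the filter of at least 10 scaled reads in at least 3 libraries only through the control group, so a gene like it had to differ to be tested. The log2 change was -1.29 ± 0.39 (SE; 95% interval -2.13 to -0.46; limma adjusted p = 0.00909), and the ratio of reads was 0.368 (0.195 to 0.660). The call was lost without control 2 (log2 change -0.99, limma adjusted p = 0.0687) and in DESeq2 on 5 libraries (adjusted p = 0.09996).

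The ITAM chain Fcer1g overlapped between the groups. Fcer1g (ENSMUSG00000058715.11, chr1:171229572-171234365, minus strand, 5 exons) stood at 27.2, 25.9 and 43.1 scaled reads in control and at 26.2, 34.6 and 25.4 in knockout. Control 3 was the highest library, and the other 5 were spread over both groups. The log2 change was -0.13 ± 0.24 (SE; 95% interval -0.64 to 0.38; limma adjusted p = 0.658), an interval that leaves room for a change of moderate size either way. Without control 3 the change was 0.10 (limma adjusted p = 0.762).

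The surface receptors Csf1r and Fcgr3 were read a few times per library, below the filter, and were not tested. Csf1r (ENSMUSG00000024621.15, chromosome 18, plus strand) had 1, 2 and 5 reads in control and 1, 2 and 6 in knockout, or 2.30 ± 1.58 and 2.96 ± 2.55 scaled reads (SD, n = 3). The ratio was 1.24, with a counting interval of 0.426 to 3.70. Hmgxb3, on the opposite strand, covers 15.1% of the exon length of Csf1r and stood at 4708 ± 212 scaled reads in control. Without a stated strand setting, reads of these genes within the shared stretch cannot be told apart. Fcgr3 (ENSMUSG00000059498.13, chr1:171051174-171064935, minus strand) had 1, 2 and 1 reads in control and 1, 1 and 2 in knockout, a ratio of 1.10 (0.206 to 5.93). A difference in either gene was not detectable at this depth. Fcgr3 shares 9.58% of its 50-base words with Fcgr2b, the inhibitory IgG receptor. Fcgr2b, also below the filter, stood at 6.05 ± 4.95 scaled reads in control and 2.36 ± 1.202 in knockout, and the groups overlapped.

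**Figure D3:**
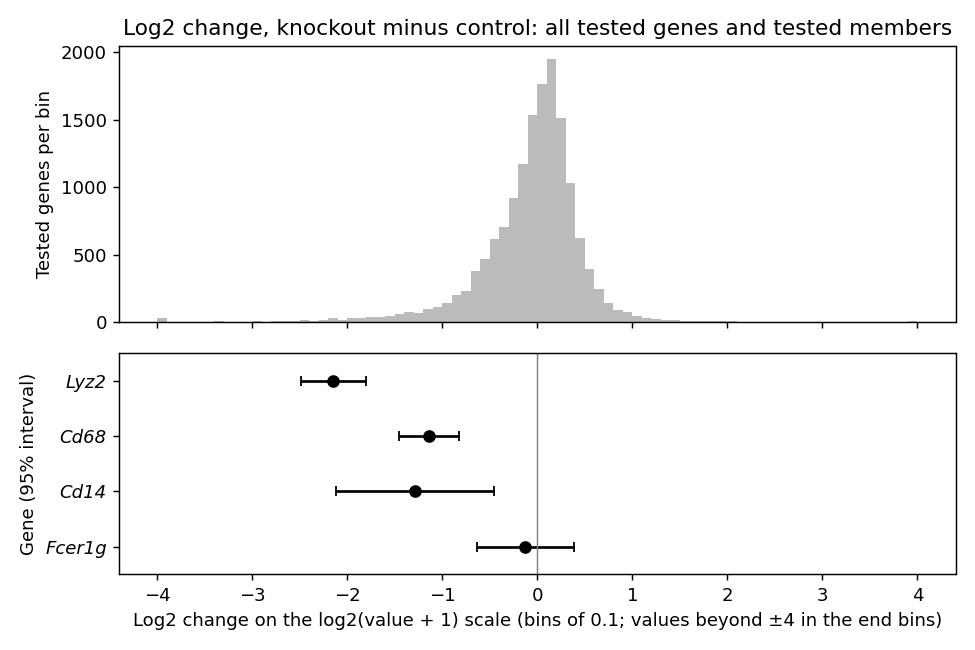
Histogram of the log2 change (knockout minus control) of all 15307 tested genes, above the log2 change and 95% interval of each tested member. Lyz2, at -2.15, lies in the lower tail, Cd68 and Cd14 lie at -1.14 and -1.29, and the interval of Fcer1g spans 0.

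The surroundings of the members differed from chromosome to chromosome. Lyz2 lies on chromosome 10, where 586 of 690 tested genes were lower in knockout and 26 higher. Within 5 Mb of Lyz2 38 of 42 tested genes were lower and 0 were higher, with a median log2 change of -0.51, and none of the 42 fell by more than Lyz2. The nearest tested genes, Yeats4 and Frs2 on one side and Cpsf6 and Cpm on the other, changed by -0.54, -0.50, -0.05 (limma adjusted p = 0.256) and -0.74. Values net of the neighbours are changes minus the running median of the 20 nearest tested genes on each side, and Lyz2 stood at -1.63 (limma adjusted p = 1.03e-07).

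Around Cd68 genes changed in both directions. Eif4a1, a translation initiation factor that lies 0.783 kb from Cd68, stood at 95832 ± 1283 and 98574 ± 2850 scaled reads (limma adjusted p = 0.262), and Mpdu1, 1.57 kb away on the other side, changed by -0.12. Shbg, the gene of sex hormone-binding globulin, 0.0488 Mb away, changed by -1.14, as much as Cd68. Of 122 tested genes within 5 Mb 26 were lower and 59 higher, and 8 fell by more than Cd68. Within 5 Mb of Cd14 and Fcer1g, 14 of 128 and 19 of 67 tested genes had a more negative change than the member. Most of those near Cd14 were protocadherin genes. Net of the neighbours, Cd68 stood at -1.27 (limma adjusted p = 7.91e-07). Cd14 and Fcer1g stood at -1.10 and -0.13 net of the neighbours. Pdgfrb, a receptor kinase 15.5 kb from Csf1r, fell from 1355 ± 150 to 526.6 ± 45.9.

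**Figure D4:**
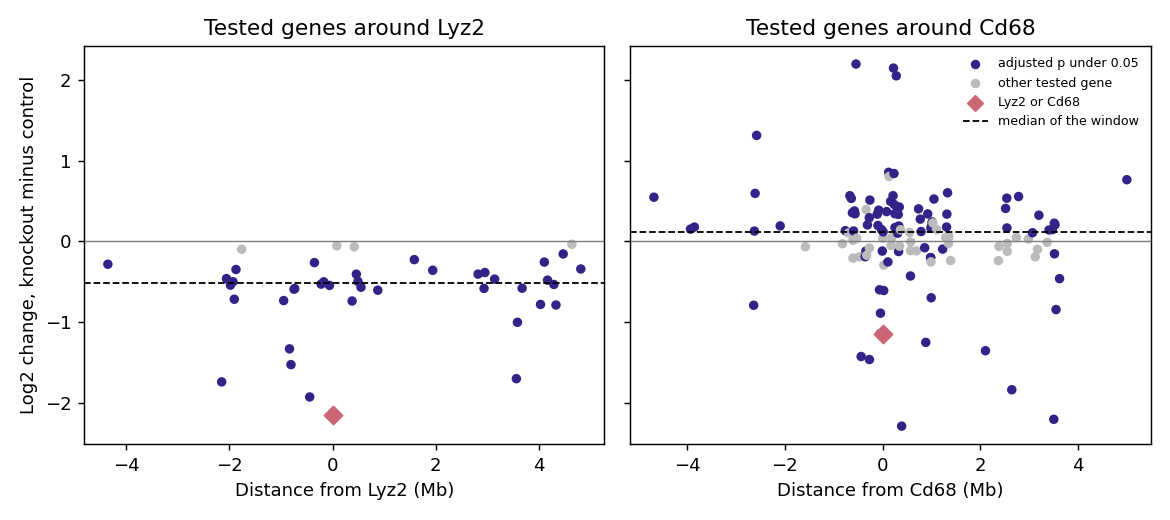
Log2 change (knockout minus control) of each tested gene within 5 Mb of Lyz2 (left) and Cd68 (right) against its distance in Mb, with dark points for adjusted p under 0.05, a diamond for the member and a dashed line at the window's median. The median is -0.51 around Lyz2 and 0.12 around Cd68, and both members lie below it.

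The bases before the starts of Lyz2, Cd68 and Fcer1g are shown because the first and second of these genes fell together while the third overlapped. Each stretch is the 250 bases before the RefSeq start on GRCm38.p6, read 5′ to 3′ on the gene's minus strand (chr10:117282273-117282522, chr11:69666171-69666420 and chr1:171234350-171234599). Capitals mark matches to the motifs named after the sequences.
Lyz2: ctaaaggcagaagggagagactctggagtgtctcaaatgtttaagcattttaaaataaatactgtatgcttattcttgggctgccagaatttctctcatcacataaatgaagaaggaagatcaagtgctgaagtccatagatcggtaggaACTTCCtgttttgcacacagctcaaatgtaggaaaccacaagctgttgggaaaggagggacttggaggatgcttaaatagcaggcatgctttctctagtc
Cd68: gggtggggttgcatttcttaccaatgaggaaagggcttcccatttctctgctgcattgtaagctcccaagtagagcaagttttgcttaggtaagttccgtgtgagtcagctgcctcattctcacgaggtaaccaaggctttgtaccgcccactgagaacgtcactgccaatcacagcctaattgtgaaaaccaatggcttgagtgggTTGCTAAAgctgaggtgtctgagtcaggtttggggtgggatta
Fcer1g: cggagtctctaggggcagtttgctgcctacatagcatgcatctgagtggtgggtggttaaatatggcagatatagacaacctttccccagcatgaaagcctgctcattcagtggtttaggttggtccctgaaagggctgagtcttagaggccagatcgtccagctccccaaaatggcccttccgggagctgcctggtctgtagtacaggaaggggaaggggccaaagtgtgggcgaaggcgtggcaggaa
The letters GAGGAAGT, of the type bound by the myeloid factor PU.1, were in 0 of these 3 stretches, and 2.44% of 32851 promoter stretches of this length hold them on either strand. The shorter ETS core GGAAGT, which GAGGAAGT contains and which was added after the sequences had been read, was found on the opposite strand of Lyz2, 100 to 95 bases before the start (19.7% of stretches). TTGCNNAA, of the type bound by C/EBP factors, was found in Cd68, 43 to 36 bases before the start (9.56% of stretches). Fcgr3, which was below the filter and is not shown here, also held it on the opposite strand. There it lay 28 to 21 and 37 to 30 bases before the RefSeq starts. No match was found in the 3 stretches for the interferon-stimulated response element (2.98% of stretches), for the E-boxes CACGTG and CATGTG that MITF can bind (6.02% and 12.3%), or, on the gene's own strand, for TATAAA (7.59%). A match here describes letters only.

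Over the 6 libraries on the log2 scale, the tested genes closest in pattern to Lyz2 were Unc5b, Asb2 and Map3k5 (Pearson's r = 0.9995, 0.9993 and 0.9993), of which Unc5b and Map3k5 also lie on chromosome 10. Asb2 fell from 583.4 ± 15.8 to 139.6 ± 27.0 scaled reads. The closest to Cd68 were Frem2, Cpq and Zwilch (0.9998, 0.9988 and 0.9986), and Cpq fell from 1162 ± 129 to 447.7 ± 25.9. For Cd14 they were Akp-ps1, Fam118b and Btbd16 (0.989, 0.987 and 0.982), and for Fcer1g Prkacb, Tmppe and Ckap2l (0.989, 0.989 and 0.960). These correlations share the libraries and, for Lyz2, Cd68 and Cd14, the split between the groups, and they were picked as the highest among 15306 genes.

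Most other genes by which macrophages are known had no row. Of 30 further macrophage and monocyte markers 5 were listed, and Ptprc, Adgre1, Itgam, Aif1, C1qa and Mrc1 were not among them, so no level is given for those genes. Itgb2, the beta chain of leukocyte integrins, fell from 39.8 ± 10.7 to 9.74 ± 1.85 scaled reads (log2 change -1.91, limma adjusted p = 1.29e-05). It lies on chromosome 10 and stood at -1.35 net of the neighbours. Siglec1, a sialic acid receptor, fell from 20.7 ± 4.996 to 7.36 ± 3.03 (log2 change -1.43, limma adjusted p = 0.00198), and it passed the filter only through control. Siglec1 did not pass in DESeq2 on 5 libraries (adjusted p = 0.0708). Coro1a and the kinase receptor Mertk did not pass (limma adjusted p = 0.280 and 0.412), and Mertk was abundant at 15072 ± 253 and 15382 ± 216. Laptm5, below the filter, stood at 9.77 ± 1.72 and 5.32 ± 2.16.

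Some leukocyte markers were lower in knockout and others did not pass, where 28.6% of all tested genes were lower and 34.4% higher. The 7 listed of 14 macrophage markers are the 6 members and Laptm5, and they summed to 326.4 to 333.6 scaled reads in control and 122.4 to 133.5 in knockout, so this sum restates the members. The sum over the 4 listed of 8 pan-leukocyte markers was 101.7 to 126.4 and 43.5 to 49.8. Of 3 tested, 2 were lower, and Coro1a did not pass. Cd37, with the highest mean, fell from 39.8 to 15.4 (log2 change -1.33, limma adjusted p = 8.42e-05). Of 10 neutrophil markers S100a8 was listed, at 24.0 to 39.3 and 5.94 to 9.41, passing the filter only through control, and of 8 mast cell markers Hdc, histidine decarboxylase, at 88.7 to 104.6 and 16.6 to 24.1. From 8 T cell markers the kinase Lck was listed, at 55.4 to 58.1 and 51.7 to 75.2 (limma adjusted p = 0.742). From 6 B cell markers Cd79a and Pax5 were listed, which summed to 30.9 to 48.0 and 21.5 to 27.2. Pax5 was called lower in knockout, and Cd79a did not pass (limma adjusted p = 0.318). Of 7 NK cell markers 0 were listed. Ptprc, Cd3e and Ncr1, which define leukocyte lineages, had no row. The 5 listed of 8 fibroblast markers summed to 2070 to 2423 and 1433 to 1508. Of 4 tested, 3 were lower and 1 higher, with a median log2 change of -1.04. Pdgfrb, with the highest mean, fell from 1355 to 526.6 (log2 change -1.36). Among these markers Col1a1 also fell, from 489.7 ± 61.2 to 36.8 ± 5.27 (limma adjusted p = 6.73e-12). Col1a2, the partner chain of the same collagen, rose from 133.5 ± 9.54 to 778.6 ± 52.0 (limma adjusted p = 3.75e-12). The part of other cells in the levels of the members was not tested.

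The counts in the gene lists that follow stand against 63.0% changed, 34.4% higher and 28.6% lower among all tested genes, and none is read as particular to its list. Of 37 genes of Fc receptors and ITAM signalling 21 were listed and 14 tested, and 6 were higher and 5 lower in knockout, with a median log2 change of 0.17 against 0.03 for all tested genes. The kinase Syk, which binds phosphorylated ITAMs, stood at 392.7 ± 9.16 and 375.2 ± 46.5 scaled reads (limma adjusted p = 0.496). Plcg1, Cbl and the Src family kinase Lyn rose by 0.60, 0.56 and 0.37 on the log2 scale. Plcg2, the phospholipase used in myeloid and B cells, fell from 1179 ± 104 to 399.5 ± 18.8, the phosphatase Ptpn6 from 2933 ± 87.6 to 1268 ± 94.4, and Fcgrt, the neonatal Fc receptor, from 948.0 ± 59.1 to 531.3 ± 78.8. The log2 changes of these 3 genes were -1.56, -1.21 and -0.84.

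Of 19 genes of the CSF1 receptor axis 16 were listed and 13 tested, with 4 higher, 5 lower and a median of 0.02. The list holds ligands and signalling partners of Csf1r and also some other receptors. Csf1, the ligand, fell from 992.3 ± 57.8 to 660.6 ± 25.2 scaled reads (log2 change -0.59, limma adjusted p = 5.09e-07), and stood at -0.21 net of the neighbours. Il34, the other ligand, was below the filter at 4.11 ± 1.77 and 2.01 ± 0.0744. Socs3 and Gab2 fell by 0.46 and 0.11 on the log2 scale, and Sos1, Cbl and the proteoglycan Sdc1 rose by 0.74, 0.56 and 0.46.

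Among the genes of CD14 and Toll-like receptor signalling, 10 of 20 tested were lower and 5 higher, with a median of -0.18, and 24 of 29 were listed. Tlr4, the receptor that Cd14 serves, stood at 5824 ± 22.6 and 6206 ± 261 scaled reads, and its partner Ly96 at 401.6 ± 0.484 and 365.6 ± 17.5. Tlr4 rose by 0.09 on the log2 scale (limma adjusted p = 0.0374), and Ly96 did not pass (limma adjusted p = 0.117). Tlr2, which pairs with Tlr1 on lipopeptides, fell from 169.0 ± 2.41 to 39.1 ± 5.81, and Tlr1 from 243.5 ± 5.85 to 57.8 ± 5.08. Their log2 changes were -2.09 and -2.06. Tlr1 shares 15.4% of its words with other genes, mainly Tlr6. Cd180 fell from 17.7 ± 2.20 to 3.33 ± 1.46. It is 1 of 2 genes counted as lower in this list that passed the filter only through control. Tirap, Irak1 and Map3k7, which carry the signal inside the cell, rose by 0.40, 0.26 and 0.15. Map3k7 did not pass net of the neighbours (limma adjusted p = 0.0634).

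Lamp1 and Lamp2, relatives of Cd68 in the LAMP family, were among the abundant genes. Lamp3 was not, at 49.4 ± 14.5 scaled reads in control and 48.0 ± 9.26 in knockout. Of 20 LAMP and scavenger receptor genes 13 were listed and 9 tested, with 1 higher, 3 lower and a median of -0.04. Lamp1 stood at 48537 ± 625 and 48801 ± 1330 scaled reads (limma adjusted p = 0.843), and Lamp2 fell by 0.26 on the log2 scale. Cd63, a tetraspanin of late endosomes, and Lrp1 fell by 0.80 and 0.68. Both lie on chromosome 10, and net of the neighbours they stood at -0.06 and -0.11 and did not pass (limma adjusted p = 0.0944 and 0.0670). Megf10, an engulfment receptor, rose by 0.60. Of 9 other lysozyme family genes 0 were listed.

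Of 29 transcription factors of myeloid cells 22 were listed and 19 tested, with 4 higher, 7 lower and a median of -0.09. Spi1, which encodes PU.1, stood at 16.7, 6.26 and 8.95 scaled reads in control and 13.6, 17.8 and 20.5 in knockout, and the groups overlapped (limma adjusted p = 0.0751). Nr1h3, the oxysterol receptor LXR alpha, rose from 7.93 ± 3.25 to 59.9 ± 2.63 and passed the filter only through knockout. Batf3 and Ets2 rose by 0.94 and 0.64 on the log2 scale. Irf4 fell from 21.7 ± 2.82 to 4.011 ± 0.968 and passed only through control, and Elf4 and Myb fell by 1.04 and 0.78. Myb lies on chromosome 10 and did not pass net of the neighbours (limma adjusted p = 0.124).

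The MiT/TFE family of factors acts on lysosomal genes in macrophages and osteoclasts and on pigment genes in melanocytes. Its factors ranged from abundant to nearly unread. Of 15 such factors and targets 15 were listed and 11 tested, with 6 higher, 3 lower and a median of 0.15. Mitf stood at 42179 ± 545 and 42577 ± 292 scaled reads (limma adjusted p = 0.694), and Tfeb rose from 652.6 ± 26.5 to 1059 ± 83.1. Ppargc1a and the lysosomal chloride transporter Clcn7 rose by 1.21 and 0.60 on the log2 scale, Clcn7 standing at 0.06 net of the neighbours (limma adjusted p = 0.245). Trpm1, Oca2 and Ostm1 fell by 1.13, 1.07 and 0.76, and Ostm1, on chromosome 10, stood at -0.15 net of the neighbours. Acp5, Ctsk and Atp6v0d2, osteoclast genes, were below the filter. So was Tfec, a factor of the family, with 1, 2 and 1 reads in control and 1, 2 and 1 in knockout.

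Antigen presentation by MHC class II, a task of macrophages, was read from 8 listed of 15 genes. Of 6 tested genes 1 was higher and 2 lower, with a median of 0.07. H2-Ab1 and the invariant chain Cd74 were below the filter, at 6.75 ± 3.76 and 2.33 ± 1.15 scaled reads in control. Ifi30, a lysosomal thiol reductase, rose from 2094 ± 42.8 to 2545 ± 42.8. Rfx5 and Rfxap, which drive class II promoters, fell by 0.90 and 0.20 on the log2 scale. Rfx5 shares 26.8% of its exon length with a gene on the opposite strand, and Rfxap stood at 0.13 net of the neighbours (limma adjusted p = 0.0545).

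**Figure D5:**
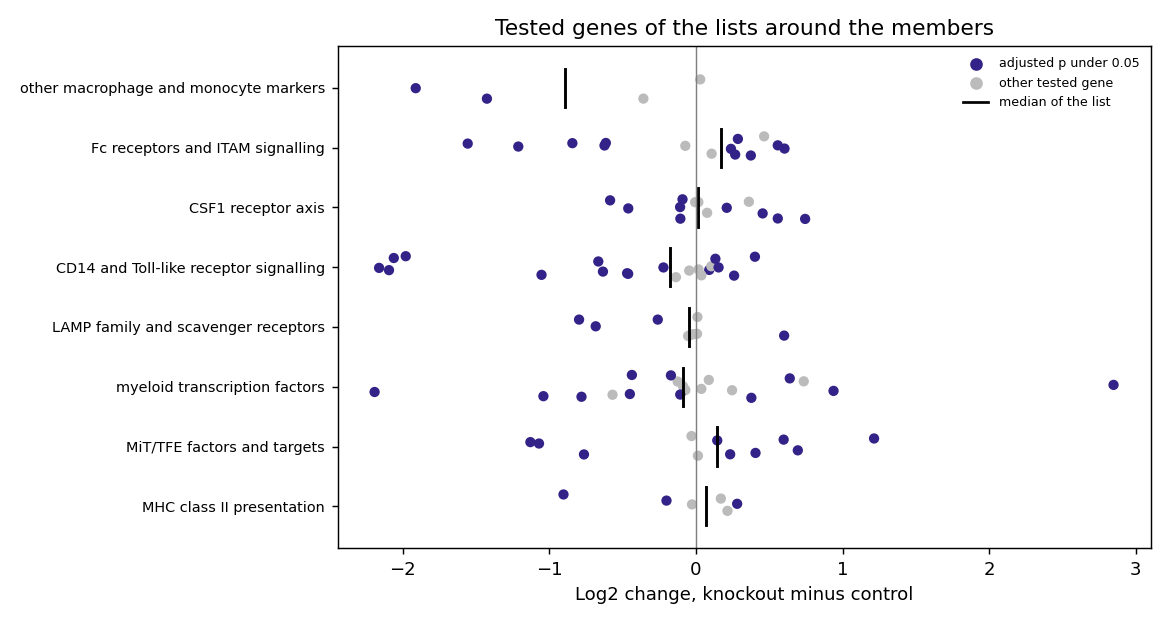
Log2 change (knockout minus control) of each tested gene in the 8 lists with tested genes, 1 point per gene, dark for adjusted p under 0.05, with the list's median as a bar (vertical scatter within a list has no meaning). Most lists hold genes on both sides of 0, and Nr1h3 stands farthest to the right.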

How the data were processed

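The samples were grouped and numbered by their titles. The authors' deposited signal values are DESeq-scaled counts of reads, per the labels and the series' design text. The submitters' processing notes list mm10, HTSeq 0.5.3, STAR 2.5.0a, DESeq and cutadapt 1.6, with no role. Annotation release, strand setting and gene filter were not given in the sources used here. Of the values 100% were whole multiples of the smallest in their column (within 0.001), and that smallest value was read as 1 read. Each listed gene then had at least 1 read in every library, so genes with 0 reads in any library appear to be left out of the table. The recovery for knockout 2 did not pass a second check, so the tests on reads used 5 libraries, in which edgeR called 8849 genes and DESeq2 8123. The reads given for knockout 2 rest on its smallest value. Counting intervals cover counting error only.

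Values were transformed to log2(value + 1), which understates changes of low genes. Genes with at least 10 in at least 3 of 6 libraries were kept, and limma 3.58.1 (R 4.3.3; trend, robust, two-sided) compared knockout with control. P-values were adjusted by Benjamini-Hochberg over all tested genes, threshold 0.05. Alternatives were other pseudocounts (0.5, 5), filters, scalings, single libraries left out, a replicate block, edgeR 4.0.16, DESeq2 1.42.0 and subtraction of neighbours. The fit was run on simulated data with the same dispersion for every gene and far fewer changed genes than here. That run does not test the fit under the conditions of these data. Replicates differed by more than counting error (chi-square over its degrees of freedom 5.16 to 15.1). That measure cannot tell separate cultures from separate libraries of the same culture.

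Positions, exon lengths and overlaps came from GENCODE M21 on GRCm38, to which 19121 of 19213 IDs matched, 13954 with the same version. Promoter sequences came from RefSeq (GRCm38.p6). The members and gene lists were chosen with earlier results of these data known. Named in the text are the members, Spp1, up to 3 genes higher and 3 lower with the largest change in each list (or the highest one), the 3 genes most alike each tested member, tested neighbours and the highest marker of each cell type. Syk, Tlr4, Ly96, Lamp1, Lamp3, Spi1, Mitf, Il34, Fcgr2b, Coro1a, Mertk, Laptm5, Pax5, Shbg, Col1a1, Col1a2, H2-Ab1, Cd74, Acp5, Ctsk, Atp6v0d2 and Tfec were named outside that rule, after their values were seen. Some genes that the rule would name are not reported here.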

Additional observations from a re-analysis of the deposited data

How the results depend on the processing

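Lyz2 and Cd68 kept their direction and their call under all 18 alternatives, with log2 changes from -2.27 to -1.63 and from -1.27 to -1.07. The least change of Lyz2 was the value net of the neighbours. Cd14, which passed the main filter only through control, kept its direction under the 16 alternatives in which it was tested (-1.57 to -0.90). The groups of Lyz2, Cd68 and Cd14 did not overlap, so leaving out a library or changing the pseudocount could not reverse their direction. The call of Cd14 was lost in DESeq2 on 5 libraries (-1.42), and without control 2. With single libraries left out its change ranged from -1.57 to -0.99. With a minimum mean of 10 over all libraries, a filter chosen after the data were seen, and with a filter of 50, Cd14 was not tested. Fcer1g passed under none of 17 alternatives (limma, edgeR or DESeq2 adjusted p 0.289 to 0.885). With single libraries left out it ranged from -0.27 to 0.10. The cause of these shifts was not tested. With the length of the longest transcript its level per kilobase in knockout was 42.0, above the 38.8 of Cd68.

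All tested genes changed numbered 9640, and 8123 to 9994 under the alternatives. With the replicate number as a block 9289 changed and no call of a member was altered. Same-numbered libraries did not deviate together (r = -0.107, -0.244 and -0.0380), so the numbers are not taken as pairs. The changed genes among other macrophage markers numbered 2, but 1 in DESeq2 on 5 libraries, and 0 with a filter of 50, which left only Mertk to test (limma unadjusted p = 0.334). In the CSF1 receptor axis 9 genes changed, but 6 with the replicate block and without control 1, control 3 or knockout 3. The other lists stayed within 1.5 times of their counts under each alternative.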
